A study of Mus musculus with 139 samples.

Results

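Lung was compared with kidney in small non-coding RNA libraries of the same mice, matched by animal number. The comparison used 13 animals with both tissues, which gave 26 of the 134 libraries in the table, and a kidney library of animal 10 entered only where a value is said to cover 14 kidney libraries. The study profiled 11 tissues of 14 individuals. All mice were of the inbred strain C57BL/6J with genotype WT, were adults aged 3 months, and gave normal tissue. By the table's column names and the labels, animals 1 to 9 were female with both libraries in pool N467, and animals 11 to 14 were male with both libraries in pool N541. Sex, animal set and pool therefore cannot be told apart. RNA came from pieces of bulk tissue, so a difference in bulk RNA can come from fewer cells of a type or from less RNA per cell, and these cannot be told apart.

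Depth in lung ran from 4809491 to 33186859 counts per library with a median of 12445057. The 14 kidney libraries ran from 301536 to 14943881 with a median of 11701147. In animals 11 to 14 the 2 tissues differed most, with 24352584 to 33186859 counts in lung and 301536 to 2663695 in kidney. Of the markers listed for 2 other organs, some were near 0 in both tissues and others were not. Mir216a, Mir216b and Mir217 of the pancreas summed to 11 counts in lung and 4 in kidney, and the 3 Mir124a genes of the brain to 10 and 10. Mir375, also listed for pancreas, had 75238 counts in lung and 7241 in kidney. The 3 Mir9 genes, also listed for brain, each had 166 to 265 counts in lung and 1924 to 2919 in kidney.

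A microRNA is cut from a hairpin precursor and guides the silencing of messenger RNAs, chiefly through its seed, bases 2 to 8 of the mature strand. Lung holds multiciliated airway cells, a dense capillary bed and many resident immune cells, while kidney is mostly tubule epithelium rich in mitochondria. Hox genes lie in 4 clusters that mark position along the body axis, and several microRNA genes lie inside those clusters. Small nucleolar RNAs (snoRNAs) guide the chemical modification of ribosomal RNA, and most lie in introns of genes for ribosomal or nucleolar proteins.

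The mature strands that carry the largest differences are shown 5′ to 3′, from RefSeq on GRCm38.p6, with the seed in capitals. The first set is encoded in Hox clusters and was higher in kidney.
miR-10a-5p: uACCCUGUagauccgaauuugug
miR-10b-5p: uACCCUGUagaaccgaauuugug
miR-196a-5p: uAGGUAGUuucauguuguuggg
miR-196b-5p: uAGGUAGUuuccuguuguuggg
Positions counted from 1 at the 5′ end, miR-10a-5p and miR-10b-5p differ by U12A, and miR-196a-5p and miR-196b-5p by A12C. Both changes lie outside the seed. Gene positions below are on GRCm38 with GENCODE M21 annotation.

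The second set was also higher in kidney and is known from tubule epithelium.
miR-192-5p: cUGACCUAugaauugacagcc
miR-194-5p: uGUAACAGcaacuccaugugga
miR-204-5p: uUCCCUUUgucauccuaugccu
miR-190a-5p: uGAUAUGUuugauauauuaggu
miR-802-5p: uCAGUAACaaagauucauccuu

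The third set was higher in lung. The first 3 strands share a seed with each other, as do the last 2.
miR-34b-5p: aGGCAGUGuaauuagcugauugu
miR-449a-5p: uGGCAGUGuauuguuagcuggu
miR-449c-5p: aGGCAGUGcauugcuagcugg
miR-1298-5p: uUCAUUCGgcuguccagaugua
miR-92b-3p: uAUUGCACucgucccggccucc
miR-146a-5p: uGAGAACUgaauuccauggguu
miR-146b-5p: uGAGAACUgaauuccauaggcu
Mir34c, the partner of Mir34b, is named without a sequence here.

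The makeup of the libraries differed by tissue. Counts on microRNA genes made up 73.2% ± 14.1 (SD, n = 13) of lung libraries and 86.8% ± 7.25 of kidney libraries, lower in lung in 11 of 13 animals (mean difference -13.6 percentage points, adjusted p = 0.00854, exact sign-flip permutation test, two-sided, adjusted over 7 RNA classes). SnoRNA genes held 2.83 to 29.7% of lung libraries (median 6.50%) and 0.266 to 2.30% of kidney libraries (median 1.66%). The lung share was higher in 13 of 13 animals, by 10.7 points on average (adjusted p = 0.000854, same exact test), and the 2 tissues did not overlap. Mitochondrial tRNA was lower in lung by 2.14 points (1.76% ± 2.09 against 3.91% ± 2.63, n = 13, adjusted p = 0.0164, same exact test). The tRNA share, 12.5% ± 14.6 in lung and 7.69% ± 5.63 in kidney, did not pass (adjusted p = 0.105, same exact test). Of the classes that held under 1% of counts, small Cajal body RNA (0.229% against 0.0669%, 13 of 13 animals, adjusted p = 0.000854) and miscellaneous RNA (0.150% against 0.0573%, 12 of 13, adjusted p = 0.00114, exact test for both) were higher in lung. Small nuclear RNA did not pass the same exact test (adjusted p = 0.119). Within the animal sets, the microRNA difference was -6.50 points in animals 1 to 9 (adjusted p = 0.109, same exact test) and -29.5 in animals 11 to 14, and the snoRNA difference 3.67 points (9 of 9 animals, adjusted p = 0.0137, same exact test) and 26.5. With 4 animals the exact test cannot go below p = 0.125.

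**Figure D1:**
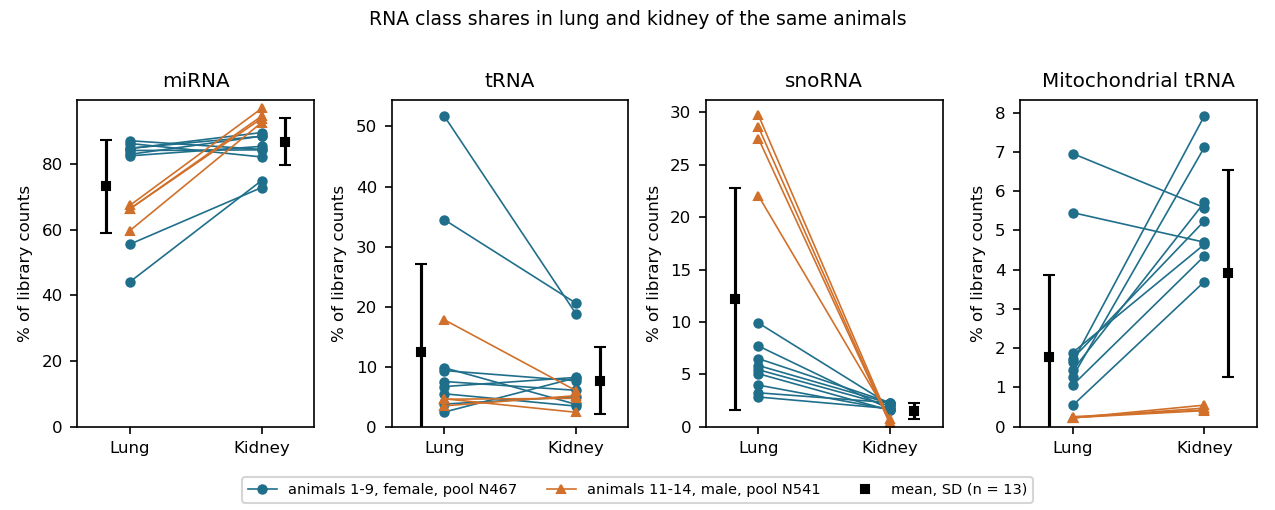
Share of library counts in 4 RNA classes (y axis, percent) in lung and kidney, with a line for each of the 13 animals, circles for animals 1 to 9 and triangles for animals 11 to 14. Black squares and bars are the mean and SD (n = 13), with bars that pass below 0 ended at the axis; snoRNA falls from lung to kidney in every animal, and the steepest lines are those of animals 11 to 14.

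Mir10a and Mir10b dominated the kidney. Mir10b held 25.03 to 39.4% of counts in the 14 kidney libraries (median 33.2%) and 0.260 to 1.44% in the 13 lung libraries (median 0.510%). Mir10a held 19.2 to 37.2% in the 14 kidney libraries (median 29.2%) and 8.49 to 25.2% in lung (median 16.1%). The ranges of Mir10b lay far apart, and those of Mir10a overlapped. Together the pair held 61.6% ± 4.54 (SD, n = 14) of kidney and 17.2% ± 5.18 (n = 13) of lung counts. The ratio of Mir10b to Mir10a counts, which no scaling of a library can move, was 0.0196 to 0.0894 in lung and 0.760 to 1.73 in the 14 kidney libraries. In each of the 14 kidney libraries 52.3 to 67.6% of counts thus lay on 2 genes, and 90% of counts lay on 22 to 46 genes in the 14 kidney libraries (median 28) against 49 to 82 in lung (median 64). Without the pair, 90% of counts lay on 47 to 99 genes in the 14 kidney libraries (median 80.5) and on 53 to 98 in lung (median 72).

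**Figure D2:**
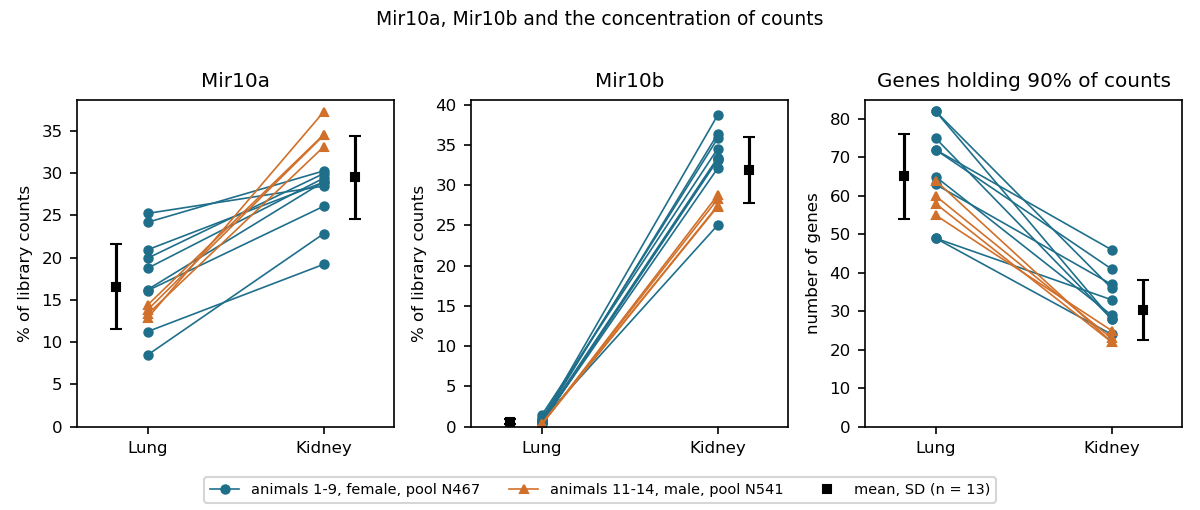
Share of library counts on Mir10a and on Mir10b (percent) and the number of genes that hold 90% of counts, in lung and kidney, with a line per animal (circles 1 to 9, triangles 11 to 14) and the mean and SD in black (n = 13). Mir10b lies between 25.03 and 38.7% in the 13 kidney libraries and at or below 1.44% in lung, and fewer genes hold 90% of counts in kidney than in lung in every animal.

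With Mir10a and Mir10b left out of the totals, the class comparison changed. The microRNA share was then 68.4% ± 14.9 in lung and 66.7% ± 14.95 in kidney, a difference of 1.61 points with the opposite sign (adjusted p = 0.773, exact test, n = 13). The tRNA difference also turned, from 4.76 to -4.45 points, and passed the exact test in neither setting (adjusted p = 0.0974 without the pair). Mitochondrial tRNA kept its direction and was lower in lung in 13 of 13 animals, at 2.14% ± 2.46 against 10.1% ± 6.80 (adjusted p = 0.000854, same exact test). Miscellaneous RNA no longer passed, at 0.183% against 0.144% (10 of 13 animals, adjusted p = 0.0739, same exact test). SnoRNA also kept its direction, at 14.5% ± 12.1 against 3.86% ± 2.04 (11 of 13 animals, adjusted p = 0.00911, same exact test). In animals 1 to 9 alone and without the pair, the microRNA share was higher in lung by 13.7 points (adjusted p = 0.0182) and the snoRNA share by 2.01 points (adjusted p = 0.109, exact test for both), and in animals 11 to 14 the microRNA difference was -25.7 points.

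Gene by gene, counts were scaled by TMM, which sets libraries to a common level over most genes, and tested within animals. A gene was called at an adjusted p below 0.05 and a log2 difference of at least 1 either way. Of 715 genes tested, 169 were higher in lung (23.6%) and 178 lower (24.9%), and the median log2 difference over all genes was 0.03. Among 310 microRNA genes, 109 were higher (35.2%) and 70 lower (22.6%). Every lung library lay above every kidney library for 38 genes (5.31%) and below for 39 (5.45%). Higher genes made up 48.7% of calls. On unscaled library totals that share was 83.5% (339 genes higher, 47.4% of those tested, and 67 lower, 9.37%) and the median log2 difference was 0.98, and on unscaled totals without Mir10a and Mir10b it was 38.5% (124 higher, 17.9%, and 198 lower, 28.6%) with a median of -0.13. With TMM and the pair left out, 155 of 692 genes were higher (22.4%) and 179 lower (25.9%), and 155 and 174 of these were called the same way with the pair included.

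All 6 tested Hox-encoded microRNA genes were lower in lung, with a median log2 difference of -8.95 beside 0.03 over all genes tested. Of all microRNA genes 22.6% were lower. A gene can pass the expression filter through 1 tissue alone. Mir196a-1, Mir196a-2, Mir196b and Mir615 had lung means of 0.00887, 0.0151, 0.465 and 0.117 CPM and may have entered through kidney alone. The count of lower genes is therefore a description and not a test of the list. In each of the 6, every lung library lay below every kidney library, as in 5.45% of all genes tested. Mir10b (chr2:74726070-74726137, in introns of Hoxd3 and Hoxd4) ran at 2252, 3586 and 9147 CPM (the usual depth-scaled count unit, here with TMM-scaled library totals; lowest, median and highest of 13 libraries) in lung and at 231856, 439741 and 565800 in kidney. Its log2 difference was -6.76 ± 0.27 (SE, adjusted p = 2.02e-12, edgeR). Mir10a (chr11:96317165-96317274, in the HoxB region outside annotated gene bodies) ran at 84518, 115034 and 210134 CPM in lung and 237921, 419016 and 689843 in kidney, a log2 difference of -1.79 ± 0.16 (adjusted p = 1.06e-07). On unscaled totals its difference was -0.87 and was not called, and the other 5 kept their calls. The pair thus differed in how far each was lower, although their seeds are the same.

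The remaining Hox-encoded genes were almost absent from lung. Mir196b (chr6:52230081-52230165, overlapping an exon of Hoxa9) ran at 0.0723, 0.472 and 1.13 CPM in lung and 261, 383 and 617 in kidney, a log2 difference of -10.01 ± 0.44 (adjusted p = 7.44e-12). For Mir196a-2 (chr15:102973350-102973434, in an intron of Hoxc5), 4 counts were found in the 13 lung libraries together and 10582 in the 13 kidney libraries. For Mir196a-1 (chr11:96265164-96265265) these sums were 2 and 6311. The ratio of kidney to lung summed counts, each divided by its tissue's total, was 5583 (95% exact interval 1545 to 46114, counting error only) for Mir196a-1. Mir196a-1 and Mir196a-2 yield the same mature strand, so counts may be divided between them. Mir615 (chr15:103014910-103015001, also in an intron of Hoxc5) ran at 0 to 0.375 CPM in lung and 9.12 to 46.6 in kidney (log2 difference -7.90 ± 0.43).

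Of the 8 tested kidney tubule genes, 6 were lower in lung and none higher, with a median of -5.07, beside 22.6% lower of all microRNA genes. Mir802, with a lung mean of 0.0557 CPM, may have passed the expression filter through kidney alone. In other settings some genes of the list were called higher, 2 on unscaled totals, 1 in animals 1 to 9 alone and 3 without animals 7 and 9. Mir192 (chr19:6264844-6264932), an abundant microRNA of the proximal tubule and gut, ran at 292, 521 and 686 CPM in lung and 16080, 22665 and 37154 in kidney, with no overlap (log2 difference -5.52 ± 0.24, adjusted p = 7.44e-12). Its neighbour Mir194-2 (chr19:6264643-6264728) differed by -5.61 ± 0.29 and the second copy Mir194-1, on chromosome 1, by -4.78 ± 0.27. Mir204 (in an intron of the channel gene Trpm3) ran at 3.87 to 9.46 CPM in lung and 102 to 694 in kidney (-5.36 ± 0.35). Mir190a (in an intron of Tln2) differed by -4.17 ± 0.19. Mir802 held 18 counts in the 13 lung libraries together and 3769 in the kidney libraries (-9.07 ± 0.51). Within this list all 6 called genes were separated without overlap, beside 5.45% of all genes tested. Mir215 has the same seed as Mir192 and lies beside Mir194-1. It stayed under the fold threshold with a log2 difference of 0.94 ± 0.22, at 3.25 to 11.4 CPM in lung and 0 to 6.78 in kidney.

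Other genes with a large excess in kidney belonged to neither list. Mir874 (in an intron of Klhl3, a gene of the kidney's salt-handling pathway) ran at 7.47, 14.6 and 26.5 CPM in lung and 120, 341 and 627 in kidney (log2 difference -4.39 ± 0.24). Mir378a lies in an intron of Ppargc1b, a coactivator of mitochondrial genes, and ran at 278, 410 and 916 CPM in lung and 3772, 4380 and 8116 in kidney (-3.51 ± 0.23). The 3 copies of Mir9, best known from brain, were each lower in lung, at 0.128 to 2.14 CPM against 4.56 to 45.0 in kidney (log2 differences of -4.92 to -5.00). Each of these genes was lower in lung in 13 of 13 animals.

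**Figure D3:**
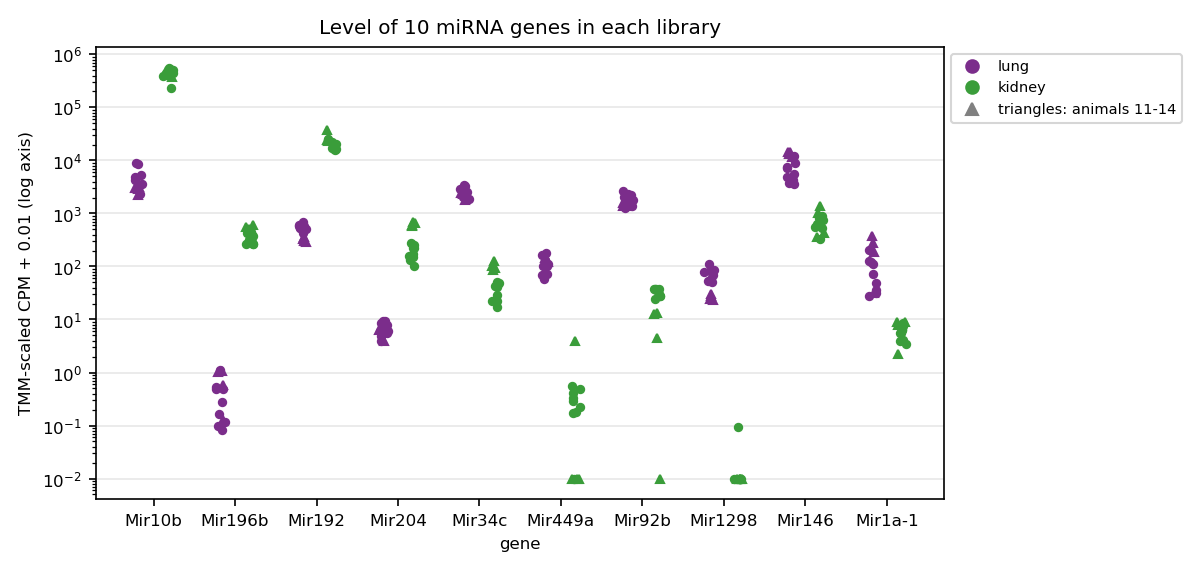
Level of 10 microRNA genes in each library, as TMM-scaled CPM plus 0.01 on a log axis, with purple for lung and green for kidney and triangles for animals 11 to 14. For each gene drawn the 13 lung and 13 kidney libraries do not overlap; points at the foot of the axis are libraries with no count.

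Lung was marked by the microRNAs of multiciliated cells, the cells that move mucus along the airways. All 4 tested members of that list were higher in lung, with a median log2 difference of 6.67, beside 35.2% higher of all microRNA genes. Mir449a and Mir449c had kidney means of 0.503 and 0.652 CPM and may have passed the expression filter through lung alone. The count is therefore a description and not a test of the list. In each of the 4, every lung library lay above every kidney library, as in 5.31% of all genes tested. Mir34c (chr9:51103034-51103110) ran at 1763, 2514 and 3442 CPM in lung and 16.9, 47.1 and 127 in kidney (log2 difference 5.77 ± 0.33, adjusted p = 1.53e-10). Mir34b, in the same cluster, differed by 5.12 ± 0.32. Mir449a (chr13:113037534-113037624) and Mir449c lie in an intron of Cdc20b, a gene of the multiciliated cell programme. Mir449a ran at 57.8, 111 and 181 CPM in lung and 0, 0.216 and 3.94 in kidney (8.46 ± 0.50, adjusted p = 2.72e-10), and Mir449c differed by 7.58 ± 0.38. The fifth member, Mir449b, was not tested because its counts were low, but it had 95 counts in lung and none in kidney. Mir34a, which shares their seed but lies on another chromosome and is a target of p53, went the other way, with a log2 difference of -1.27 ± 0.30 (34.0 to 81.9 CPM in lung, 84.5 to 259.6 in kidney). It was not called in animals 1 to 9 alone, at -0.59, without animals 12 and 13, at -0.96, or on unscaled totals, at -0.37.

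The gene with the largest fitted difference toward lung, Mir1298, lies in an intron of Htr2c on the X chromosome, which encodes a serotonin receptor. Mir1298 (chrX:147064905-147065002) ran at 23.0, 54.1 and 110 CPM in lung. Summed over 13 libraries it had 14713 counts in lung and 1 in kidney, a ratio of 8315 after division by each tissue's total (95% exact interval 1492 to 328453, counting error only). Of the other microRNAs in introns of Htr2c, which were looked up after Mir1298 had been seen, Mir1264 had 2341 counts in lung, Mir1912 994, Mir448 974 and Mir764 277. None of these 4 had a count in kidney, where a floor of 3 counts over the 13 libraries makes lung at least 441-fold higher for Mir1264 and at least 52.2-fold higher for Mir764. Each of the 5 was present in 13 of 13 lung libraries. Mir490, in an intron of the muscarinic receptor gene Chrm2 and likewise singled out after its values were seen, had 9755 counts in lung and 9 in kidney.

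Mir92b (chr3:89227116-89227198) ran at 1262, 1796 and 2617 CPM in lung and 0, 28.3 and 38.3 in kidney, with no overlap (log2 difference 6.28 ± 0.35, adjusted p = 1.07e-10). It shares its seed with Mir92-1 and Mir92-2 of the Mir17-92 clusters. Mir92-1 ran at 3099, 5127 and 9949 CPM in lung and 716, 2710 and 7010 in kidney (0.97 ± 0.24), under the fold threshold. The ratio of Mir92b to Mir92-2 counts was 4.54 to 21.5 in lung and 0 to 0.293 in the 14 kidney libraries.

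Of 12 tested immune cell genes, 11 were higher in lung and none lower, with a median log2 difference of 2.10, beside 35.2% higher of all microRNA genes. The 11 include Mir181a and Mir181b as copies that may share counts. On unscaled totals without Mir10a and Mir10b 9 of the 12 were higher, as were 9 with microRNA genes alone in the fit. Mir181c lost its call in 5 of 14 alternative settings. The most changed were the 2 brakes on NF-κB signalling. Mir146, the table's name for the miR-146a gene (chr11:43374397-43374461), ran at 3593, 7462 and 14672 CPM in lung and 327, 669 and 1357 in kidney (3.54 ± 0.28, adjusted p = 1.19e-08). Mir146b ran at 2954, 4956 and 8660 CPM in lung and 100, 771 and 1312 in kidney (3.16 ± 0.33). Neither pair of ranges overlapped. Mir181a-1 and Mir181a-2, lymphoid regulators that share a mature strand, differed by 2.73 ± 0.22 and 2.75 ± 0.22. Mir150 of lymphocytes differed by 2.40 ± 0.24, Mir223 of myeloid cells by 2.37 ± 0.28 and Mir142 of all blood cells by 1.84 ± 0.22, each higher in 13 of 13 animals. Mir155, induced in activated immune cells, ran at 15.1, 26.9 and 46.4 CPM in lung and 12.0, 21.5 and 27.5 in kidney and stayed under the fold threshold (0.49 ± 0.20). Blood cell microRNAs of the red lineage did not follow. Mir451a ran at 621 to 2285 CPM in lung and 1323 to 5413 in kidney (-1.20 ± 0.25), and lost its call in 5 of 14 alternative settings, among them unscaled totals and animals 1 to 9 alone. Mir486, which overlaps Mir3107 on the opposite strand so that their counts cannot be separated, did not pass (-0.35 ± 0.18).

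Few vascular and stromal genes were called. Mir126a (chr2:26591357-26591429, within Egfl7), the endothelial microRNA, ran at 3275, 6156 and 28851 CPM in lung and 1667, 3503 and 8785 in kidney, with overlap (log2 difference 1.16 ± 0.26, adjusted p = 0.00101). It depended on the animal set, with 1.67 in animals 1 to 9 and -0.02 in animals 11 to 14 (adjusted p of the difference 0.000180), and was not called with microRNA genes alone in the fit. The other 2 tested members of the endothelial list, Mir221 and Mir222, did not pass, at 286 to 508 and 125 to 254 CPM in lung and 197 to 606 and 91.2 to 259 in kidney. Mir143 of smooth muscle ran at 21290, 59192 and 65581 CPM in lung and 16959, 27645 and 38515 in kidney (1.08 ± 0.19), and was not called with microRNA genes alone in the fit or on unscaled totals without Mir10a and Mir10b. Its neighbour Mir145a did not pass (0.38 ± 0.22). None of the 5 stromal genes passed over all animals, but all 5 depended on the animal set, with medians of 0.35 in animals 1 to 9 and -1.01 in animals 11 to 14. In animals 11 to 14 alone 2 were lower. On unscaled totals 2 were higher. Of the 5, Mir21a, induced in injury and fibrosis, had log2 differences of 0.16 and -2.33 in the 2 sets (adjusted p of the difference 3.26e-06).

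Of 7 genes in the X-linked Mir322 cluster, 3 were higher in lung and none lower, with a median of 0.96, beside 35.2% higher of all microRNA genes. On unscaled totals 5 were higher, and on unscaled totals without Mir10a and Mir10b 2. Mir351 (chrX:53053255-53053353) stood out within it, at 946, 1577 and 2242 CPM in lung and 147, 268 and 482 in kidney without overlap (2.40 ± 0.17, adjusted p = 4.51e-09). Mir322, its neighbour on the same strand, differed by 0.77 ± 0.18 and ran at 268 to 1102 CPM in lung and 208 to 852 in kidney. The 2 copies Mir450-1 and Mir450-2 had log2 differences of -0.19 and -0.28. None of the 7 passed the interaction test between animal sets. Of the 3 called genes, Mir542 (1.14 ± 0.20) and Mir450b (1.20 ± 0.25) were not called in animals 11 to 14 alone, at 0.98 and 0.70.

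Several microRNAs of striated muscle were also higher in lung. Mir1a-1 ran at 27.3, 109 and 370 CPM in lung and 2.24, 6.20 and 9.12 in kidney (log2 difference 3.96 ± 0.43). Mir1a-2, Mir133a-1 and Mir133a-2 differed by 4.27 ± 0.49, 4.04 ± 0.51 and 3.92 ± 0.44. Their lung levels spread more than 10-fold between animals, and all 13 lung libraries lay above all 13 kidney libraries. Mir208b, in an intron of the heart myosin gene Myh7, had 4262 counts in lung and 5 in kidney, and Mir208a of the heart had 1590 and 31. Mir206 of skeletal muscle had 32 and 3. Mir499 of the heart had 56 counts in lung and 32 in kidney, a ratio of lung to kidney of 0.989 after division by each tissue's total (95% exact interval 0.630 to 1.58, counting error only). On unscaled totals the median log2 difference over all genes was 0.98, so a ratio near 1 need not mark equal levels on the TMM scale. Their part in other lung differences was not tested. Mir122 of liver had 1374 counts in lung and 66 in kidney. Mir375, of islets and neuroendocrine cells, ran at 187 to 361 CPM in lung and 36.5 to 104 in kidney (1.99 ± 0.17).

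Several families split between the tissues although their members share a seed. In the Mir30 family, abundant in both organs, 1 of 6 tested genes was higher in lung and 3 were lower. Of all microRNA genes, 35.2% were higher and 22.6% lower. The family's median of -0.83 became 0.09 on unscaled totals. Of the 3 lower genes, Mir30c-1 and Mir30c-2 are copies that may share counts. In animals 1 to 9 alone 1 of the 6 was higher and 1 lower. Mir30d (chr15:68341208-68341289) ran at 14503, 19362 and 27666 CPM in lung and 4895, 8034 and 15102 in kidney (1.19 ± 0.15, higher in 13 of 13 animals, but just under the fold threshold on unscaled totals without Mir10a and Mir10b). Mir30e (chr4:120772606-120772697) ran at 1665, 3252 and 6988 in lung and 7838, 17922 and 28410 in kidney (-2.17 ± 0.22, lower in 13 of 13). Mir30a, whose strand differs from that of Mir30e by C13U, did not pass (-0.44 ± 0.26) and its sign changed between settings.
miR-30a-5p: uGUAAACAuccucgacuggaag
miR-30e-5p: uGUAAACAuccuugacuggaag
The ratio of Mir30d to Mir30e counts, chosen after the values were seen and free of scaling, was 2.90 to 15.4 in lung and 0.272 to 1.68 in the 14 kidney libraries.

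The Mir200 family, which maintains the epithelial state, lies in 2 clusters, and the clusters differed. Mir200b and Mir200a on chromosome 4 were lower in lung (-1.86 ± 0.27 and -1.75 ± 0.32), and Mir429 beside them fell just short of the fold threshold (-0.998 ± 0.23). On chromosome 6, Mir200c was higher in lung (1.07 ± 0.19, 82.0 to 236 CPM against 18.2 to 116, its call lost in 4 of 14 alternative settings) and Mir141 was not called (0.69 ± 0.27). The strands are printed because each seed is held by genes of both clusters.
miR-200b-3p: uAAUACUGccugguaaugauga
miR-200c-3p: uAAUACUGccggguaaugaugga
miR-200a-3p: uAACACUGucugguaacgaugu
miR-141-3p: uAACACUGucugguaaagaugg
miR-200a-3p and miR-141-3p differ by C17A and U22G. Counts of Mir200c per count of Mir200b were 0.127 to 0.357 in lung and 0.00651 to 0.0488 in the 14 kidney libraries, which did not overlap. On unscaled totals no gene of the Mir200 and Mir183 list was lower in lung and 5 of 10 were higher, against 3 lower and 2 higher with TMM. On unscaled totals without Mir10a and Mir10b none was higher and 4 were lower. Mir182 of the Mir183 cluster was the second higher gene (1.07 ± 0.20), and lost its call in 5 of 14 alternative settings. Mir205 of basal epithelium was the third lower gene (-1.496 ± 0.39), with 0.11 in animals 11 to 14 alone.

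Of 15 genes in the Mir17-92 and paralogous clusters, which promote proliferation, 8 were lower in lung and none higher (median -1.11), beside 22.6% lower of all microRNA genes. On unscaled totals 5 were lower and 1 higher. Mir106a and Mir18b, with lung means of 0.568 and 0.455 CPM, may have passed the expression filter through kidney alone. The X-linked copy held the largest differences, with Mir20b at 0 to 3.25 CPM in lung and 11.5 to 54.9 in kidney (-4.46 ± 0.50), and Mir106a at -4.02 ± 0.41 and Mir363 at -2.61 ± 0.26. Mir17 and Mir20a of the chromosome 14 cluster differed by -1.82 ± 0.34 and -1.95 ± 0.27. Of 18 let-7, Mir99 and Mir125 genes, linked to differentiation, 8 were higher in lung and none lower (median 0.85), beside 35.2% higher of all microRNA genes. The 8 include Mirlet7a-1 with Mirlet7a-2 and Mirlet7c-1 with Mirlet7c-2, copies that may share counts. In the fit with copies summed, 2 of the 10 listed genes without numbered copies were higher. With microRNA genes alone in the fit, 3 of the 18 were higher. On unscaled totals 16 were higher, and on unscaled totals without Mir10a and Mir10b 3. Of the 18, 12 depended on the animal set, with medians of 1.20 in animals 1 to 9 and 0.15 in animals 11 to 14, and in animals 11 to 14 alone 4 were higher and 1 lower. Mirlet7i ran at 1660, 2801 and 3964 CPM in lung and 361, 629 and 1681 in kidney (1.83 ± 0.20) and Mir125a at 923, 3269 and 9288 against 399, 938 and 1621 (1.95 ± 0.26).

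The Mir29, Mir26 and Mir101 list held 2 genes higher and 5 lower in lung of 10 tested, beside 35.2% higher and 22.6% lower of all microRNA genes. On unscaled totals 4 were higher and none lower. Mir29b-1 and Mir29b-2, which restrain collagen synthesis, were lower in lung (-1.76 ± 0.22 and -1.81 ± 0.23), whereas Mir29a, in the same transcript as Mir29b-1, did not pass (0.23 ± 0.19). Mir26a-1 and Mir26a-2 were higher (1.53 ± 0.23 for each) and Mir101a was lower (-1.74 ± 0.28). The Mir26a copies had 6101143 and 6099924 counts in lung and 463989 and 464678 in kidney. They may share counts, as may the Mir29b copies, so neither pair need be separate signals. Mir148a was higher (1.59 ± 0.28) in the Mir130, Mir301 and Mir148 list, where 3 of 7 were higher and none lower, beside 35.2% higher of all microRNA genes. Mir301b, among the higher genes with a kidney mean of 0.638 CPM, may have passed the expression filter through lung alone. With Mir10a and Mir10b left out 1 of 6 was higher, on unscaled totals without the pair 1 was higher and 1 lower, and in animals 11 to 14 alone 1 was higher and 2 lower. Mir23a was the 1 higher gene of 6 in the Mir23, Mir24 and Mir27 clusters (1.25 ± 0.17). In the Mir15 and Mir16 list 1 of 6 genes was called, Mir15a, as lower (-1.03), but the call was absent in 9 of 14 alternative settings. All 6 depended on the animal set, with medians of 0.78 in animals 1 to 9 and -1.18 in animals 11 to 14, and 3 were higher and none lower in animals 1 to 9 alone and on unscaled totals. From the imprinted Dlk1-Dio3 cluster on chromosome 12, 13 of 53 listed genes had enough counts to test. Of these, 12 were higher in lung and none lower (median 1.496), beside 35.2% higher of all microRNA genes. A gene can pass the filter through 1 tissue alone, so members may have entered only through lung, where they are high. Mir329, Mir376b and Mir673, for example, had kidney means of 0.364, 0.317 and 0.365 CPM. The count is therefore a description and not a test of the cluster. Mir541, with the largest difference of the 13, ran at 26.9, 59.3 and 122 CPM in lung and 2.51, 7.89 and 14.6 in kidney (2.80 ± 0.27), and Mir127 differed by 1.69 ± 0.27.

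**Figure D4:**
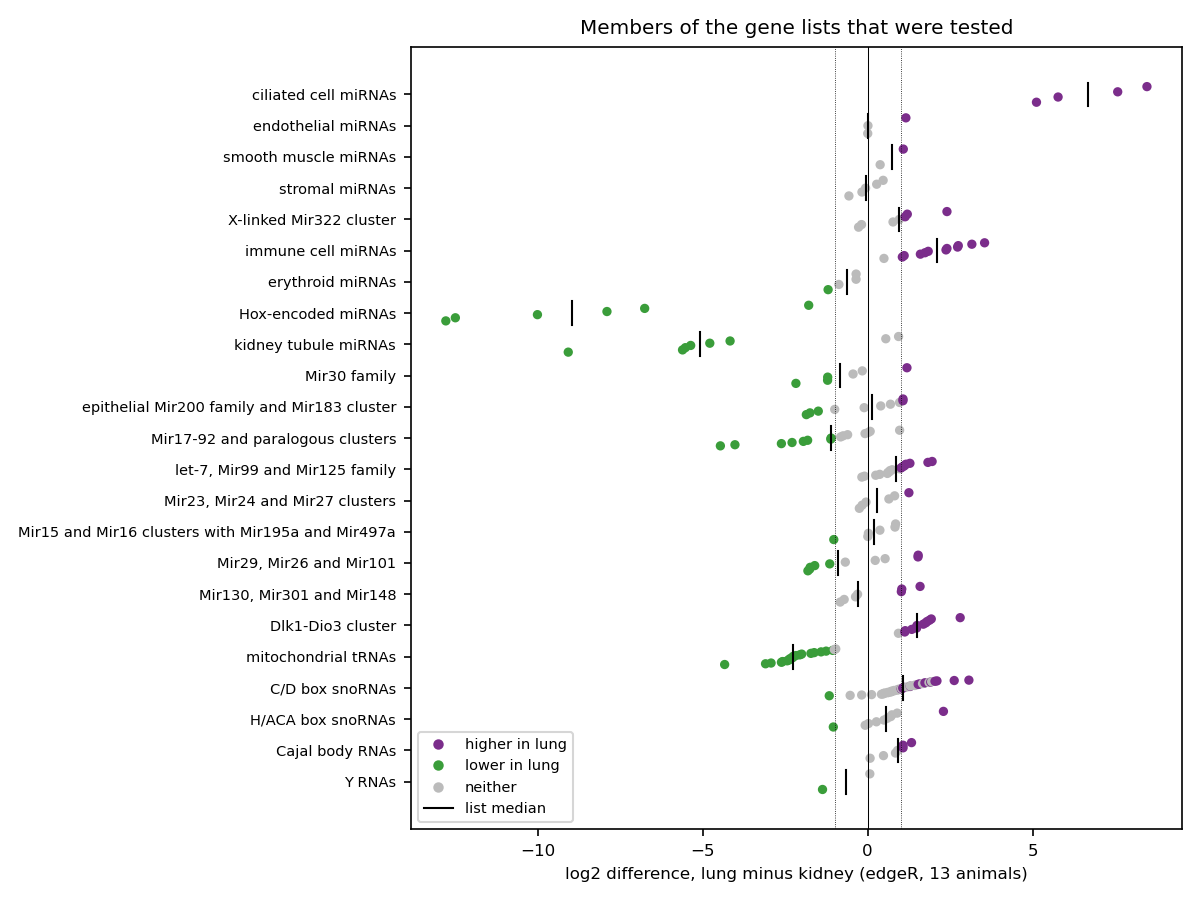
Log2 difference, lung minus kidney (x axis), of each tested member of 23 gene lists (y axis), coloured purple where higher in lung, green where lower and grey where not called, with the list median as a black bar and dotted lines at -1 and 1. The ciliated cell list lies wholly to the right and the Hox-encoded list wholly to the left, while the Mir30 and Mir200 lists hold genes on both sides.

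MicroRNA genes were also grouped by position and by seed. Of 47 groups of at least 2 tested genes within 10 kb on the same strand, 26 held calls only toward lung, 12 only toward kidney, 9 none and 0 in both directions. Mir30d and Mir34c had no matched mature sequence and did not enter the grouping by seed. The Mir30 seed GUAAACA therefore counts there as only toward kidney, although Mir30d was higher in lung. Of 23 seeds held by at least 3 tested genes with a matched sequence, 7 had calls only toward lung, 11 only toward kidney, 2 none and 3 in both directions. The 3 were GGCAGUG with Mir34a against Mir34b, Mir449a and Mir449c, AUUGCAC with Mir92b against Mir363 and Mir32, and AAUACUG with Mir200c against Mir200b. These counts are descriptions, since genes of a group may share a transcript and copies may share counts. A gene also entered under the seed of each of its matched mature strands, so the same genes can count more than once. Toward kidney, the Mir9 copies count under CUUUGGU and UAAAGCU, and Mir103-1, Mir103-2 and Mir107 under GCAGCAU and GCUUCUU. Toward lung, let-7 genes count under GAGGUAG and UAUACAA.

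Mitochondrial tRNAs were lower in lung. Of 22 genes tested, 20 were lower (90.9%) and none higher, with a median log2 difference of -2.26, beside 24.9% lower over all genes. mt-Ty, the tRNA for tyrosine, ran at 43.3, 139 and 640 CPM in lung and 652, 2702 and 22929 in kidney without overlap (-4.33 ± 0.45, adjusted p = 5.07e-07). mt-Tv ran at 577 to 5694 CPM in lung and 2453 to 24463 in kidney, and mt-Ts2 at 425 to 6326 and 903 to 25482, both lower in 13 of 13 animals with some overlap. The 2 genes without a call were mt-Tp (-1.01 ± 0.57) and mt-Ts1 (-0.97). In animals 11 to 14 alone, 12 of 21 were lower and 1, mt-Tp, higher (1.42), beside 15.5% lower and 38.5% higher over all genes in those animals. On unscaled totals 14 of 22 were lower and none higher.

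By share of genes, the 2 animal sets differed most in snoRNA. The lung minus kidney difference depended on the animal set for 286 of 715 genes (40.0%) at an adjusted p below 0.05 (edgeR interaction test), and for 65 of 107 snoRNA genes (60.7%), of which 63 leaned further toward lung in animals 11 to 14. The median snoRNA difference was 0.09 in animals 1 to 9 and 2.87 in animals 11 to 14. For microRNA genes 122 of 310 depended on the set (39.4%), and 93 of these leaned further toward kidney in animals 11 to 14. Of 42 tested C/D box snoRNAs, which guide methylation, 13 were higher in lung and 1 lower over all animals, beside 25.2% higher and 8.41% lower of all snoRNA genes. In animals 1 to 9 alone 4 were higher and 1 lower, beside 22.3% and 26.1% of all genes. In animals 11 to 14 alone 39 of 43 were higher and none lower, beside 38.5% and 15.5% of all genes. On unscaled totals 37 of the 42 were higher, and on unscaled totals without Mir10a and Mir10b 8.

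The snoRNAs that show this are Snord49a, among the 6 named genes with the highest mean level in lung, and Snord83b, with the smallest interaction p of the named genes. Their sequences are those of GENCODE M21 transcripts, 5′ to 3′ as DNA, with the C box motif TGATGA and the D box motif CTGA in capitals.
Snord49a: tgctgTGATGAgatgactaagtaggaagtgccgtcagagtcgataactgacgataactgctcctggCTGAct
Snord83b: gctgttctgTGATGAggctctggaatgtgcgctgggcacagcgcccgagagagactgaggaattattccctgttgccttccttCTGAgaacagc
Snord49a (chr11:62603450-62603521) ran at 127 to 263 CPM in lung of animals 1 to 9 and 51790 to 77046 in lung of animals 11 to 14. In kidney it ran at 39.3 to 55.8 and 292 to 854. Its log2 difference was 1.89 in animals 1 to 9 and 6.99 in animals 11 to 14 (adjusted p of the difference 8.64e-09). Snord83b (chr15:80078498-80078591, in an intron of Rpl3) ran at 98.3 to 191 CPM in lung and 56.0 to 137 in kidney of animals 1 to 9, and at 8126 to 10458 in lung and 0 to 11.8 in kidney of animals 11 to 14 (0.55 and 10.34, adjusted p of the difference 3.12e-10). For Snord49a animals 11 to 14 were above animals 1 to 9 in both tissues, and for Snord83b they were above in lung and below in kidney, with no overlap between the sets in any of these.

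Snord43, in another intron of Rpl3, is classed as microRNA in the table but is a snoRNA by name. It held 4.04 to 4.82% of lung counts in animals 11 to 14 and 0.0498 to 0.288% in the other lung libraries. Counted as snoRNA, it moved the snoRNA difference from 10.7 to 12.1 points and the microRNA difference from -13.6 to -14.99, and changed no call. Depth moved with the animal sets, as each lung library of animals 11 to 14 was deeper than every kidney library of these animals, and its part was not tested.

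**Figure D5:**
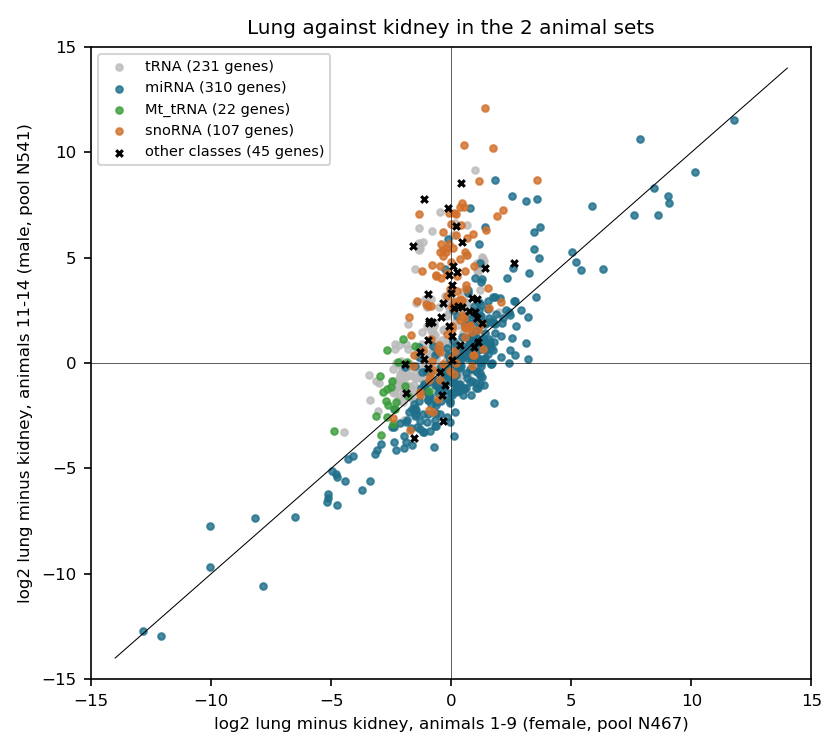
Log2 difference, lung minus kidney, of each of 715 tested genes in animals 1 to 9 (x axis) and animals 11 to 14 (y axis), coloured by RNA class, with the line of equal values. SnoRNA genes lie mostly above the line, with medians of 0.09 in animals 1 to 9 and 2.87 in animals 11 to 14.

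Among the smaller classes, 3 of 7 tested Cajal body RNAs were higher in lung and none lower, among them Scarna17 (1.07 ± 0.22). Over all genes tested, 23.6% were higher and 24.9% lower. Of the 7 Cajal body RNAs, 4 depended on the animal set, with medians of 0.44 in animals 1 to 9 and 2.70 in animals 11 to 14. On unscaled totals 7 of 7 were higher, and none on unscaled totals without Mir10a and Mir10b. Of the H/ACA box snoRNAs, which guide pseudouridylation, 1 of 10 was higher and 1 lower, beside 25.2% and 8.41% of all snoRNA genes. Of the Y RNAs, which bind the Ro protein, Rny3 was lower in lung (-1.37 ± 0.35), with 0.19 in animals 11 to 14 alone, and Rny1 did not pass (0.07 ± 0.18). The tRNA genes, which carry only numbers in the table, held 22 higher (9.52%) and 74 lower (32.0%) of 231 tested. Of the 231, 72 depended on the animal set, beside 40.0% of all genes tested. Of the 72, 71 leaned further toward lung in animals 11 to 14. Median log2 differences of the tRNA genes were -0.84 in animals 1 to 9 and 0.01 in animals 11 to 14. The snoRNA with the highest mean level in lung was Gm26202, in an intron of Rpl17, at 8058, 22526 and 71906 CPM in lung and 862, 12406 and 23904 in kidney (1.37 ± 0.45). It was not called in animals 1 to 9 alone.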

How the data were processed

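The authors deposited a table of raw counts for 6114 small RNA genes, with 134 library columns, while the series lists 139 samples. Per the labels' protocols, a TruSeq Small RNA kit (Illumina) was used and libraries were size-selected, so values are relative within a library. STAR 2.5.1, featureCounts and mm10/GRCm38 are named in the submitters' processing notes. Strand and multi-mapping settings were not given in the sources used here, and copies of a microRNA and overlapping genes may share counts. Classes are the table's own.

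Counts were tested with edgeR 4.0.16 in R 4.3.3 (quasi-likelihood F test, animal as block) after TMM scaling and edgeR's expression filter (filterByExpr, tissue as group, minimum count 10). P-values were Benjamini-Hochberg adjusted over all 715 genes, and errors of log2 differences are standard errors. Set dependence was an interaction in the same fit. Class shares were tested by exact sign flips over 13 animals, and their dependence on the set by exact permutation of set labels over 13 animals. Figures used matplotlib 3.10.9. Alternatives included DESeq2 1.42.0, other scalings, no filter, no block and subsets of animals.

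Pairing comes from animal numbers, which the labels give as individuals. The correlation of a lung library's deviations with those of its own kidney library was -0.10 to 0.54, and its own kidney was the best match in 3 of 13 animals.

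The members, lists and named genes were chosen with earlier results of these data known. Named were the 12 called genes with the largest difference in each direction that had the same sign in 13 animals and a mean of at least 50 CPM in the higher tissue, the 6 most abundant genes per tissue, list members, the 6 smallest interaction p-values and markers used to check the labels. Rows that carry only a number were left out of these rankings. Mir32, Mir34a and Snord43 were added after their values were seen. Names match the table or RefSeq synonyms. RefSeq mature sequences matched 270 of 310 tested microRNA genes and GENCODE M21 positions 302.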

Additional observations from a re-analysis of the deposited data

Results flagged for a closer look

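The lung minus kidney difference depended on the animal set, which is also sex and library pool, for 286 genes in edgeR's interaction test. Between animals 11 to 14 and animals 1 to 9 the class difference changed by -23.0 percentage points for microRNA (adjusted p = 0.0196, exact permutation of set labels over 13 animals, two-sided) and by 22.9 points for snoRNA (adjusted p = 0.00979, same exact test). Among named genes, with rows that carry only a number left out, the 6 with the smallest interaction p were all snoRNA genes. On the log2 scale the difference was further toward lung in animals 11 to 14 by 9.79 for Snord83b, 6.86 for Snord32a, 7.45 for Gm23344, 6.59 for Snord82, 8.48 for Gm24463 and 6.11 for Snord59a. Snord82, Snord32a and Snord59a lie in introns of Ncl, Rpl13a and Atp5b. Lung libraries of animals 11 to 14 were deeper than their kidney libraries, and the part of depth, pool or sex was not tested.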

How the results depend on the processing

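Calls toward lung numbered 169 and calls toward kidney 178 of 715 genes. They numbered 339 and 67 of 715 on unscaled library totals, 314 and 204 of 2537 without a filter, 296 and 210 of 1268 with all tissues in 1 fit, and 283 and 114 of 735 in animals 11 to 14 alone. With microRNA genes alone they were 82 and 80 of 313, beside 109 and 70 of the 310 microRNA genes in the fit of all classes. That last setting and the fits without animals 7 and 9 (216 and 143) or 12 and 13 (163 and 173) were added after seeing the data. In the fit without the replicate block 168 and 164 of 722 genes were called, of which 158 and 159 were also called with it, and 105 of 109 genes checked one by one kept direction and call (Mir15a, not among them, lost its call). Without Mir10a and Mir10b, none of 107 such genes lost a call. The interaction count, 286 of 715, was 117 of 313 with microRNA genes alone, beside 122 of 310 in the fit of all classes.

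The microRNA share difference was 1.61 points without Mir10a and Mir10b and -6.50 in animals 1 to 9, the tRNA difference -4.45, the small nuclear RNA difference -0.00992 and the miscellaneous RNA difference 0.0393 without the pair. Signs turned on unscaled totals for Mir486 (0.56), Mir30a (0.48), Mir30b (0.75), Mir29c (0.23) and Mir21a (0.35), and without Mir10a and Mir10b on unscaled totals for Rny1 (-0.12). They turned in animals 1 to 9 for Mir30a (0.12), Mir30b (0.35), Snord59a (-0.34), Snord43 (-0.057) and Mir21a (0.25), and in animals 11 to 14 for Mir486 (0.088), Mir141 (-0.21), Mir205 (0.11), mt-Tp (1.42) and Rny3 (0.19). Mir30b also turned without a filter (0.049), without animals 7 and 9 (0.035) and without animals 12 and 13 (0.10), and Rny1 with copies summed (-0.030). The causes were not tested. Genes with few counts in the kidney libraries of animals 12 and 13 are limited by depth.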
